A study of Sus scrofa with 4 samples.

Results

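Antisense lncRNAs are long noncoding RNAs transcribed from the strand opposite to another gene, here called the sense gene. The members were the 906 assembled transcripts that the deposited tables list under the biotype antisense, among 22944 rows with an expression value, and each was paired with the protein_coding row on the opposite strand whose genomic span overlapped its own. The samples were primary preadipocytes from subcutaneous fat of 5-day-old male Chinese Erhualian piglets, grown to confluence (D0) and then differentiated in culture. Dexamethasone, IBMX and insulin were given for the first 2 days (D2), insulin alone was given up to day 4 (D4), and growth medium followed until day 8 (D8). Equal amounts of RNA from 3 piglets were pooled for each stage, and a single strand-specific library of rRNA-depleted RNA was made from each pool. With 1 library a stage there were no replicates. A difference between stages and a difference between libraries cannot be told apart, no test between stages was possible, and a lower level in a culture of mixed cells cannot be told apart from fewer cells that hold the RNA.

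As background, antisense RNAs can share a promoter region with the sense gene when the 5′ ends overlap (head to head), can overlap it at the 3′ ends (tail to tail), or can lie within it. Some are known to change the transcription, splicing or stability of the sense RNA, and many have no known role. Preadipocytes are fibroblast-like cells of adipose tissue that store lipid in droplets once PPARG and C/EBP transcription factors are switched on. The marker genes followed the labels: the summed FPKM, a count of fragments scaled to transcript length and library size, of ADIPOQ, PLIN1, FABP4, CIDEC and LEP was 84.2 (D0), 267 (D2), 1252 (D4) and 1861 (D8), with LEP below 1 in every library. FABP4 carried most of this sum, with 77.5, 201, 853 and 1557, whereas from D4 to D8 PLIN1 went from 215 to 90.3 and ADIPOQ from 179 to 158. Markers of endothelial cells summed to at most 2.59 and those of leukocytes to at most 8.03. Of 5 muscle markers, 3 had a value, and MYH11 and MYOG were below 1 in every library. The muscle sum, mainly DES, fell from 436 at D0 to 38.1 at D2 and 4.39 at D4 and stood at 36.0 at D8. The part of these mixtures in the results was not tested.

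For MSTRG.131380 and MSTRG.28, antisense lncRNAs of different kinds (from chromosome 15, low after D0, and from the mitochondrial genome, highest at D4), the study designed PCR primers. With these primers it ran quantitative RT-PCR on 3 RNA samples per stage and reported trends similar to its RNA-Seq values. Those PCR values are not used here. The primers are the only stretches of the members' sequence used here and are shown so that the measured RNAs can be located. No part is capitalised.
MSTRG.131380, first primer: acaccaggcttcaaacggaa
MSTRG.131380, second primer: gcactagctgtcaaggctga
MSTRG.28, first primer: agctaggacccaaactggga
MSTRG.28, second primer: tggcaagggttggtaaggtc

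Of the 906 antisense lncRNAs, 740 (81.7%) overlapped at least 1 protein_coding row on the opposite strand, 653 of them exactly 1 and 87 more than 1. The row with the longest overlap was taken as the sense gene, which gave 709 different sense genes, and 27 of these were shared by 2 or 3 antisense lncRNAs. For the other 166, the opposite strand held a row of another biotype in 88 cases and no row in 78. The commonest arrangement was an antisense lncRNA inside its sense gene (312 pairs), followed by head to head (221), tail to tail (159) and a sense gene inside its antisense lncRNA (48). The median overlap was 893 bases in head to head pairs and 5336 bases in tail to tail pairs. All spans included introns, so that an overlap of spans need not be an overlap of exons.

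Most antisense lncRNAs were weakly expressed. Their median FPKM was 0.332 (D0), 0.284 (D2), 0.340 (D4) and 0.302 (D8). All 906 were above 0 in at least 1 library and 454 in all 4, while between 233 (D0) and 297 (D8) rested on 1 to 9 fragments. With the study's filter for reliable expression, an FPKM of at least 1 in 3 or more of the libraries, 95 (10.5%) remained. The share was 7.82% of 1625 lincRNAs (transcripts between genes), 6.74% of 3084 annotated lncRNAs and 56.8% of 16192 protein_coding rows. By arrangement, 27 of 159 tail to tail antisense lncRNAs passed, 22 of 221 head to head, 24 of 312 inside the sense gene and 8 of 48 that enclosed it. A row can pass this filter through the 3 libraries in which it is high, so the counts among the 95 include rows that had to differ.

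A few loci held nearly all of the antisense signal. Antisense lncRNAs took 0.912% of the fragments of the D0 library, 1.80% at D2, 2.04% at D4 and 0.838% at D8. MSTRG.17987 alone made up 61.5% (D0), 81.5% (D2), 85.1% (D4) and 65.7% (D8) of the antisense fragments. Without it, the remaining antisense lncRNAs took 0.351%, 0.332%, 0.304% and 0.287% of the 4 library totals, with no rise at D2 and D4. The rise of the class at D2 and D4 was thus the rise of a single transcript.

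MSTRG.17987 (Sscrofa11.1, chr2:6747825-6758624, minus strand) had an FPKM of 593 (D0), 1553 (D2), 1838 (D4) and 582 (D8), from 298100 to 1292179 fragments. The D2 and D4 libraries were high, and the D0 and D8 libraries were nearly level. Its log2 ratio to D0 was 1.39 at D2 (95% interval 1.38 to 1.39) and 1.63 at D4 (1.63 to 1.64). At D8 it was -0.03 (-0.03 to -0.02). These intervals, like all those given here, come from recovered fragment numbers and cover counting error only. The row opposite to it is not protein_coding but an annotated lncRNA, LOC102163816, whose FPKM was 1.57, 3.19, 2.98 and 1.82 at D0, D2, D4 and D8.

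The transcripts next in abundance lay on unplaced scaffolds. MSTRG.157957 (positions 1411 to 2847, minus strand) had an FPKM of 522, 687, 591 and 510 at D0, D2, D4 and D8. MSTRG.157960 (7788 to 9695, minus strand) had 525, 341, 303 and 355, and both overlap LOC102158401, a predicted gene that stayed between 3.84 and 5.59. The scaffold also carries the ribosomal RNA row RN18S, with an FPKM of 424, 243, 211 and 287. RN18S was highest at D0 and lowest at D4, the same order of stages as for MSTRG.157960. MSTRG.157957 had another order, highest at D2 and lowest at D8. MSTRG.156933 (3274 to 6866, plus strand of another scaffold) had 343, 298, 260 and 268, against 2.21 to 4.16 for the opposite row LOC110258214. MSTRG.156933 was also highest at D0 and lowest at D4 but, unlike RN18S, was higher at D2 than at D8. The 3 antisense scaffold rows and MSTRG.17987 together held 92.0%, 95.4%, 95.7% and 91.9% of the antisense fragments of the 4 libraries. Whether rRNA left after depletion contributed to the scaffold rows was not tested.

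MSTRG.28 is a mitochondrial transcript (positions 132 to 1932, minus strand). Its FPKM was 45.3 (D0), 88.5 (D2), 123 (D4) and 66.0 (D8), so that D4 was highest and D0 lowest. Between D0 and D4 the log2 ratio was 1.44 (95% interval 1.40 to 1.48). The row opposite to it, rna78601, stood at 64.3, 202, 650 and 73.0. This row is listed as protein_coding in the deposited tables, but all 19 mitochondrial rows of that kind are tRNA (17) or rRNA (2) genes in the RefSeq annotation, rna78601 being an rRNA. MSTRG.28 and rna78601 both rose from D0 to D4, and neither entry describes a coding sense gene. Whether the amount of rRNA left after depletion in each library contributed to the values of rna78601 was not tested.

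The others of the 10 most abundant were MSTRG.88924, MSTRG.65804 and MSTRG.97367, described next, and MSTRG.135318 and MSTRG.68172. Abundance here means FPKM, which is scaled to length, and some of these rows are short. The smallest length that gave whole fragments was 207 bases for MSTRG.68172 and 276 for MSTRG.65804. By fragments the order differs, since MSTRG.18003, with 13459 bases, had 3917 to 10185 fragments and MSTRG.65804 had 148 to 2328. MSTRG.135318 (chr15:104198421-104258423, minus strand) overlaps AOX1, the aldehyde oxidase gene, tail to tail. Its FPKM was 57.9, 90.3, 37.8 and 74.2 at D0, D2, D4 and D8, while AOX1 had 2.90, 9.63, 14.3 and 4.23. AOX1 was highest in the D4 library, in which its antisense lncRNA was lowest. MSTRG.68172 (chr7:9917545-9932517, minus strand) has no row opposite and stood at 30.6, 66.0, 54.6 and 13.5, high in the 2 middle stages.

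**Figure D1:**
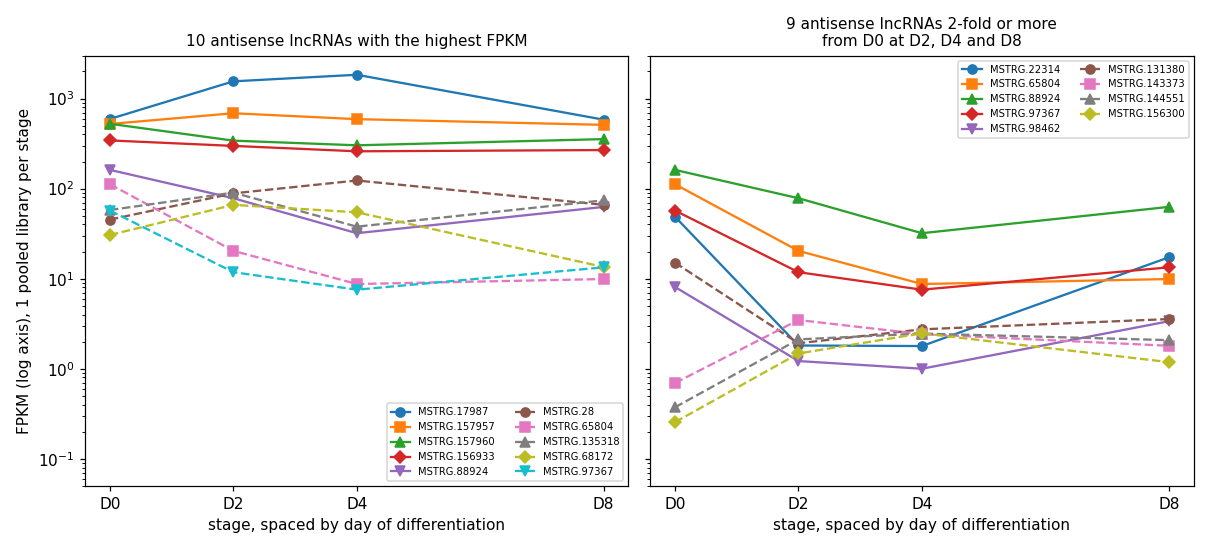
FPKM (vertical log axis) of single antisense lncRNAs in the D0, D2, D4 and D8 libraries (horizontal axis, spaced by day), each point 1 pooled library. Left, the 10 with the highest FPKM, where MSTRG.17987 rises from 593 at D0 to 1838 at D4 and is back at 582 at D8. Right, the 6 that were at least 2-fold below D0 at every later stage and the 3 that were at least 2-fold above it.

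The 5 comparisons of the study asked how the transcriptome changed at each step and from the start. With a ratio of at least 2 between libraries as the call, 14 of the 95 reliably expressed antisense lncRNAs were higher at D2 than at D0 and 10 were lower, where 7.06% of all 9929 reliably expressed rows were higher and 10.7% lower. In D4 vs D2, 5 were higher and 10 lower (all rows: 4.53% and 1.49%). In D8 vs D4, 6 were higher and 22 lower (all rows: 4.75% and 10.4%). Over the longer intervals, D4 vs D0 had 16 higher and 15 lower (all rows: 10.7% and 9.57%), and D8 vs D0 had 5 higher and 22 lower (all rows: 3.87% and 4.82%). As shares of the 95, the lower calls were 10.5% in D4 vs D2, 23.2% in D8 vs D4 and 23.2% in D8 vs D0. Such lower calls were not particular to antisense lncRNAs. Of 127 reliably expressed lincRNAs, 19, 25 and 32 were lower in these comparisons, and of 208 annotated lncRNAs 4, 18 and 10. When an FPKM of at least 1 was required in all 4 libraries, 64 antisense lncRNAs remained, and 12.5%, 17.2% and 18.8% of them were lower in these comparisons, beside 1.07%, 8.88% and 3.86% of all 9139 rows. Each call among the 95 had a counting interval that left out a ratio of 1. These are descriptions of 4 libraries, and comparisons that share a library are not independent of each other.

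The whole distributions moved little. The median log2 ratio of the 95 was 0.11 in D2 vs D0, -0.20 in D4 vs D2, -0.14 in D8 vs D4, -0.11 in D4 vs D0 and -0.26 in D8 vs D0. Over all reliably expressed rows it was -0.03, 0.09, -0.21, 0.05 and -0.18. Scaling the libraries to the median protein_coding ratio shifted D8 vs D4 by 0.21 and D8 vs D0 by 0.16 on the log2 scale and raised both. Relative to that shift, D8 vs D4 had 11 higher and 17 lower calls and a median of 0.07, and D8 vs D0 had 6 and 20. For D4 vs D2 the split became 3 higher and 13 lower. Shares of all rows with this scaling were not computed, so these counts have no background beside them. Over the 4 libraries, the highest and the lowest FPKM were at least 2-fold apart for 64.2% of the 95 antisense lncRNAs and for 30.6% of the reliably expressed protein_coding rows. A 4-fold range was reached by 18.9% and 8.0%. The antisense lncRNAs had a median of 77 fragments at D8 and 132 at D4, and the part of counting error in their range was not tested. The highest value fell at D0 for 31, at D2 for 29, at D4 for 25 and at D8 for 10. Of the 9191 reliably expressed protein_coding rows it fell at these stages for 3355, 1533, 3429 and 874, so that D8 held the fewest in both sets.

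**Figure D2:**
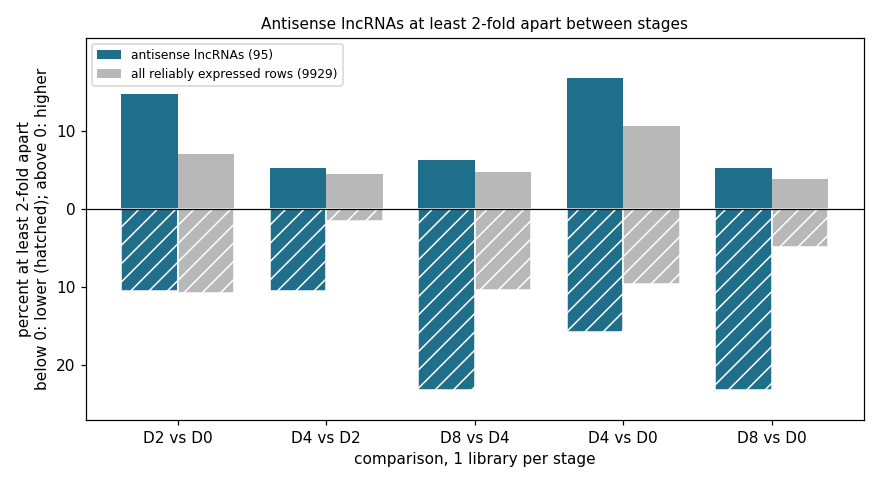
Share in percent (vertical axis, bars from 0) of reliably expressed antisense lncRNAs (blue, 95) and of all reliably expressed rows (grey, 9929) at least 2-fold apart in each of 5 comparisons (horizontal axis), higher above 0 and lower below 0 (hatched). In D8 vs D0, 23.2% of the antisense lncRNAs were lower, beside 4.82% of all rows and, not drawn, 32 of 127 lincRNAs.

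Against D0, 6 antisense lncRNAs were at least 2-fold lower at D2, D4 and D8 alike and 3 were at least 2-fold higher, where 2.22% and 2.57% of all reliably expressed rows were. The largest fall was that of MSTRG.22314 (chr2:69273046-69313225, plus strand), whose FPKM was 48.8 (D0), 1.81 (D2), 1.79 (D4) and 17.2 (D8), from 886, 24, 32 and 225 fragments. The D2 and D4 libraries were low and D8 lay between them and D0. The log2 ratio to D0 was -4.74 at D2 (95% interval -5.40 to -4.17), -4.76 at D4 (-5.33 to -4.26) and -1.50 at D8 (-1.72 to -1.29). Its span encloses KEAP1, whose product hands the transcription factor NRF2 to degradation, and S1PR5, a sphingosine 1-phosphate receptor. KEAP1 stayed level, at 17.7, 19.9, 20.02 and 15.0. S1PR5 was at most 0.156. MSTRG.22314 therefore went from 2.75 times the FPKM of KEAP1 at D0 to 0.0892 times at D4.

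MSTRG.65804 (chr6:145422196-145427430, minus strand) had an FPKM of 112 (D0), 20.4 (D2), 8.72 (D4) and 9.91 (D8). It fell at each of the first steps and did not return, with a log2 ratio to D0 of -3.50 at D8 (95% interval -3.75 to -3.26). It lies inside C6H1orf141, an uncharacterised gene listed at 0 at D0, D2 and D4 and at 0.329 at D8. In FPKM, the signal at this locus was thus on the antisense strand, with almost nothing on the strand of the annotated gene.

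MSTRG.97367 (chr11:1139288-1187871, plus strand) had an FPKM of 57.1, 11.8, 7.54 and 13.4 at D0, D2, D4 and D8. It lies inside XPO4, which encodes a nuclear transport receptor. XPO4 stood at 6.46, 7.31, 8.07 and 5.13. The antisense lncRNA had 8.83 times the FPKM of XPO4 at D0 and 0.934 times at D4, and its log2 ratio from D0 to D4 was -2.92 (95% interval -3.17 to -2.67). At D4, where the antisense lncRNA was lowest, XPO4 had its highest value.

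MSTRG.88924 (chr9:70354635-70399503, minus strand) had 161, 78.2, 32.0 and 62.6. Its log2 ratio to D0 was -1.05 at D2 (95% interval -1.14 to -0.96), just past the 2-fold limit, and -2.34 at D4 (-2.45 to -2.22). Its longest overlap is head to head with CFAP69, a gene of cilia and flagella, which was at 0.480, 0.124, 0.176 and 0.252. It also overlaps STEAP2, which encodes a metalloreductase. STEAP2 had 6.20, 2.13, 1.43 and 4.26, lower at D2 and D4 than at D0 and D8. Both genes opposite to MSTRG.88924 had their highest value at D0, as it did.

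The remaining 2 that stayed low were smaller. MSTRG.131380 (chr15:33326717-33328324, plus strand) had an FPKM of 15.0 (D0), 1.92 (D2), 2.74 (D4) and 3.56 (D8), and its sense gene LOC106509653 was listed at 0 in all libraries but D8, where it had 0.0217. Its log2 ratio of D2 to D0 was -2.97 (95% interval -3.57 to -2.42), from 29 against 312 fragments. MSTRG.98462 (chr11:19056294-19061089, plus strand) had 8.09, 1.22, 0.9999 and 3.37 and overlaps only an annotated lncRNA, LOC110255759, at 0.00345 or less. For both, the D0 library stood above the 3 others and the sense strand was nearly silent.

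The 3 that stayed high were weak transcripts. MSTRG.143373 (chr17:14899010-14900132, plus strand) had an FPKM of 0.694 (D0), 3.47 (D2), 2.42 (D4) and 1.80 (D8). MSTRG.144551 (chr17:32965509-32984406, plus strand) had 0.373, 2.12, 2.46 and 2.08. Neither has a row opposite to it. MSTRG.156300 (unplaced scaffold, 26594 to 27178, minus strand) had 0.255, 1.48, 2.47 and 1.18 from 9, 38, 86 and 30 fragments, head to head with LOC110257977, which was below 0.510 throughout. All 3 were under 1 at D0 and passed the filter through the other libraries alone.

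Whether an antisense lncRNA and its sense gene moved together was examined in the 60 pairs, with 59 different sense genes, in which both were reliably expressed. In D2 vs D0, 10 antisense lncRNAs and 10 sense genes were at least 2-fold apart, with 16.8% of all reliably expressed protein_coding rows past that ratio, and in 1 pair both were. D4 vs D2 had 10 antisense lncRNAs and 4 sense genes (protein_coding rows: 5.08%), with both in 2 pairs. For D8 vs D4 the numbers were 18 and 7 (protein_coding rows: 14.5%), with both in 0 pairs. D4 vs D0 gave 17 and 12 (protein_coding rows: 19.2%), with both in 4 pairs, and D8 vs D0 gave 16 and 2 (protein_coding rows: 7.28%), with both in 1 pair. Because few sense genes were past 2-fold, the number of shared changes could only be small. Whether it differs from that of unrelated rows was not tested. Counting any size of change, the signs of both members were the same in 31, 30, 31, 31 and 34 of the 60 pairs in these comparisons.

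In the median, the antisense member moved more than the sense member. The median size of the log2 ratio was 0.55 for antisense lncRNAs and 0.31 for sense genes in D2 vs D0, 0.43 and 0.15 in D4 vs D2, and 0.63 and 0.33 in D8 vs D4. It was 0.60 and 0.39 in D4 vs D0 and 0.56 and 0.32 in D8 vs D0. Over the 4 libraries, 37 of the 60 antisense lncRNAs and 15 of the sense genes ranged at least 2-fold. In 21 pairs the antisense lncRNA ranged at least 2-fold while the sense gene ranged less than 1.5-fold. Antisense lncRNAs had fewer fragments than most sense genes, and the part of counting error in this difference was not tested.

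**Figure D3:**
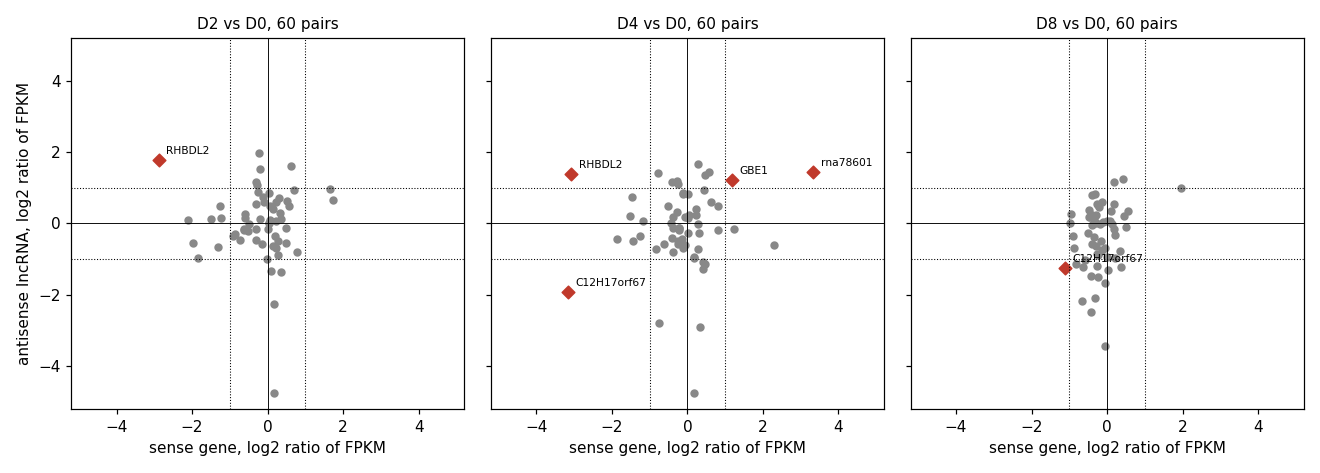
Log2 ratio of FPKM of the antisense lncRNA (vertical axis) against that of its sense gene (horizontal axis) for 60 pairs in D2 vs D0, D4 vs D0 and D8 vs D0, each point 1 pair and dotted lines a 2-fold change. Red diamonds, named by sense gene, are pairs in which both members were at least 2-fold apart (1, 4 and 1 pairs), and most other points with a large antisense change sit close to 0 on the sense axis.

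Opposite changes past 2-fold were seen at RHBDL2 and INCENP. RHBDL2 encodes a rhomboid protease that cuts proteins within the membrane, and its tail to tail partner is MSTRG.63436. RHBDL2 had an FPKM of 11.9 (D0), 1.61 (D2), 1.40 (D4) and 9.62 (D8). MSTRG.63436 had 0.616, 2.12, 1.63 and 1.11. The sense gene was high at D0 and D8, and the antisense lncRNA was high at D2 and D4. The D2 to D0 log2 ratio was -2.88 for RHBDL2 (95% interval -3.08 to -2.70) and 1.76 for MSTRG.63436 (1.37 to 2.21), and the D4 to D0 ratios were -3.08 and 1.39. Hence the antisense to sense ratio went from 0.0516 at D0 to 1.31 at D2 and 0.115 at D8.

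INCENP encodes a scaffold of the chromosomal passenger complex, which acts in mitosis. Its FPKM was 1.39 (D0), 0.590 (D2), 1.57 (D4) and 1.15 (D8), and that of its head to head partner MSTRG.18286 was 8.61, 9.50, 4.50 and 3.77. From D2 to D4 INCENP rose by a log2 ratio of 1.40 (95% interval 1.17 to 1.67) and MSTRG.18286 fell by 1.08 on the log2 scale (interval -1.50 to -0.67). In D2 vs D0, INCENP changed by -1.23 while MSTRG.18286 changed by 0.14, so the opposite movement was seen in a single step. At each of these loci 1 member was below 1 in 1 library, and with an FPKM of at least 1 required in all 4 libraries, or with a pseudocount of 1, no pair moved in opposite directions past 2-fold.

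Changes in the same direction past 2-fold were seen at C12H17orf67, GBE1 and the mitochondrial MSTRG.28 (D4 vs D0 only), whose sense row is an rRNA. C12H17orf67, an uncharacterised gene, had an FPKM of 22.1, 5.59, 2.47 and 10.2 at D0, D2, D4 and D8. MSTRG.104053, tail to tail with it, had 4.86, 3.29, 1.28 and 2.02. Both members were highest at D0 and lowest at D4, with D4 to D0 log2 ratios of -3.16 (95% interval -3.40 to -2.93) and -1.92 (-2.71 to -1.20). This pair also passed 2-fold in D4 vs D2 and in D8 vs D0.

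GBE1 encodes the glycogen branching enzyme and is head to head with MSTRG.117526, with 621 bases of overlap. GBE1 rose at every step, with 22.3, 34.1, 50.2 and 86.4. MSTRG.117526 had 2.32, 7.08, 5.37 and 4.58, with its highest value at D2. In D4 vs D0 the log2 ratios were 1.17 for GBE1 (95% interval 1.13 to 1.22) and 1.20 for MSTRG.117526 (0.97 to 1.45). After D2 they parted, since GBE1 continued to rise and the antisense lncRNA declined.

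The filter shaped this picture, because most antisense lncRNAs lie below it. Without a minimum FPKM, between 413 and 449 pairs had both members above 0 in both libraries of a comparison. A change was counted here when the ratio was at least 2 and the counting interval left out 1 for both members, a call added after the data were seen. In D4 vs D0, 46 pairs (44 different sense genes) moved in the same direction, 19 up and 27 down, and 7 in opposite directions, where 15.1% of protein_coding rows above 0 in both libraries were higher and 12.8% lower by the same call. In D2 vs D0, 34 pairs moved in the same direction and 8 in opposite directions (protein_coding rows: 10.3% higher and 14.6% lower). D8 vs D4 had 20 and 5 (8.54% and 14.4%), D8 vs D0 had 17 and 2 (7.46% and 8.49%), and D4 vs D2 had 6 and 4 (9.14% and 3.82%). Same-direction pairs were the more numerous by the ratio alone as well in every comparison but D4 vs D2, where it gave 6 in the same and 7 in opposite directions. Of the 53 pairs called in D4 vs D0, 7 had an antisense lncRNA that passed the filter. The D2, D4 and D8 comparisons with D0 share the D0 library and are not independent of each other.

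By arrangement, the pairs that moved in the same direction in D4 vs D0 were 26 of 158 head to head (16.5%), 17 of 171 with the antisense lncRNA inside the sense gene (9.94%), 3 of 96 tail to tail (3.12%) and 0 of 24 with the sense gene inside. Those that moved in opposite directions were 2 head to head, 2 with the antisense lncRNA inside the sense gene and 3 tail to tail. The difference between arrangements was not tested.

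Among the pairs that rose together in D4 vs D0 are those of IGF1 and ID1, picked after their values were seen. IGF1 encodes insulin-like growth factor 1 and had an FPKM of 18.8, 49.1, 44.8 and 14.6 at D0, D2, D4 and D8. MSTRG.54102, head to head with it, had 0.279, 0.615, 1.28 and 0.963, from 140, 225, 635 and 347 fragments. Both were higher at D2 and D4 than at D0, but IGF1 was lowest at D8 and its antisense lncRNA was not. ID1, which encodes an inhibitor of helix-loop-helix transcription factors, had 93.9, 178, 303 and 51.0. MSTRG.144768 inside it had 0.351, 1.73, 3.77 and 0.856, from 12, 43, 127 and 21 fragments. In both members of the ID1 pair D4 was highest, with D4 to D0 log2 ratios of 1.69 for ID1 and 3.39 for the antisense lncRNA.

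Among the pairs that fell together in D4 vs D0 are those of KLF7, CLIC1 and HIF1A, picked in the same way. KLF7, a zinc finger transcription factor, had an FPKM of 12.1, 2.44, 3.58 and 6.65, and MSTRG.135866, head to head with it, had 2.02, 0.875, 0.836 and 0.957. Their D4 to D0 log2 ratios were -1.75 and -1.26, from 150 against 367 antisense fragments. CLIC1, an intracellular chloride channel protein, had 227, 24.4, 29.0 and 102, and MSTRG.69154 inside it had 0.798, 0, 0.0623 and 0.599, from 13, 0, 1 and 7 fragments. HIF1A, the oxygen-regulated transcription factor, had 76.6, 35.7, 38.0 and 41.5. MSTRG.11725 inside it had 0.845, 0.318, 0.101 and 1.08. At D8, HIF1A was closer to its D2 than to its D0 value, whereas MSTRG.11725 was above its D0 value. The clearest opposite pair by size, FLNC with MSTRG.148136, is described with the gene lists. AVEN, an inhibitor of apoptosis, had 22.3, 6.91, 6.32 and 11.5, and MSTRG.74130, head to head with it, had 0.479, 2.24, 1.67 and 0.487. The AVEN antisense lncRNA was high in the 2 libraries in which AVEN was low.

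Antisense lncRNAs were mostly weaker than their sense genes. The FPKM ratio of antisense to sense was below 1 in all 4 libraries for 43 of the 60 pairs and above 1 in all 4 for 6, and the order changed between libraries for 11. The median over pairs was 0.236, with quartiles of 0.105 and 0.624. The ratio stayed within 2-fold over the 4 libraries in 16 pairs, and in 0 of these did the sense gene itself range 2-fold or more.

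**Figure D4:**
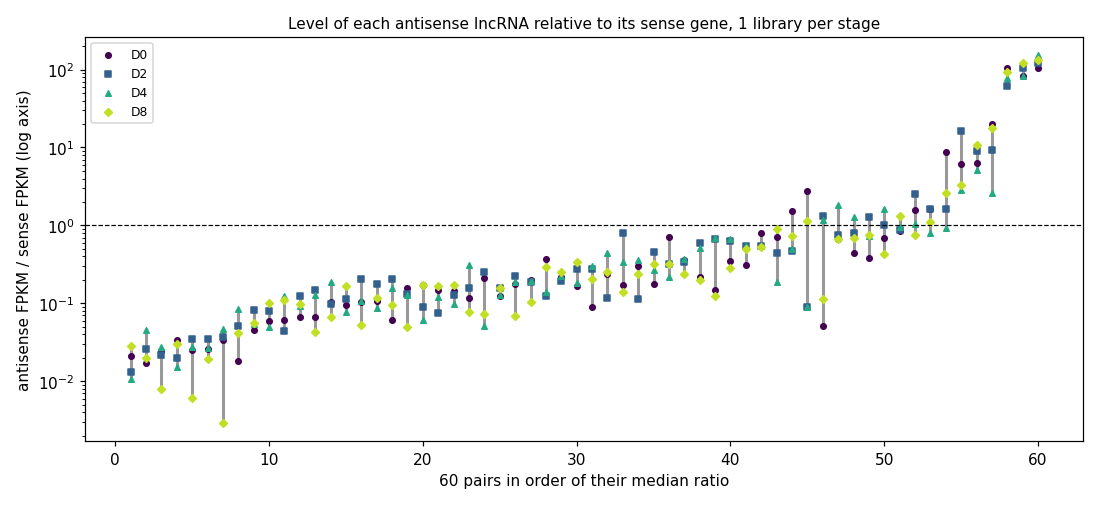
Antisense FPKM divided by sense FPKM (vertical log axis) for 60 pairs in the order of their median ratio (horizontal axis), with 1 symbol per library and a grey bar from the lowest to the highest. Most pairs lie below the dashed line at 1, and the 3 at the far right, with medians from 85.3 to 127.8, are those on unplaced scaffolds.

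The 5 lowest median ratios belonged to abundant sense genes. IL6ST encodes gp130, the shared receptor chain of interleukin 6 type cytokines, and had an FPKM of 68.3, 96.4, 119 and 53.6 at D0, D2, D4 and D8. MSTRG.139875 inside it had 1.43, 1.29, 1.26 and 1.54, nearly flat while IL6ST was highest at D4. FLNA, the actin crosslinker filamin A, had 155, 81.8, 42.6 and 85.0, and MSTRG.155811, head to head with it, had 2.70, 2.12, 1.97 and 1.68. FLNA ranged more widely than its antisense lncRNA, so that the ratio was highest at D4 (0.0463) and lowest at D0 (0.0174).

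The other 3 of these pairs were those of CCDC47, DSE and PSMD8. CCDC47, which encodes a protein of the endoplasmic reticulum, ran from 85.8 at D0 to 110 at D8. MSTRG.102383, tail to tail with it, had 2.10, 2.21, 2.80 and 0.891. DSE, the dermatan sulfate epimerase, stayed between 43.6 and 52.4, with MSTRG.4590 at 1.47, 1.03, 0.743 and 1.44. PSMD8, a proteasome subunit, had 116, 75.1, 65.3 and 85.5, and MSTRG.58524 inside it declined from 2.93 and 2.63 to 1.78 and 0.519. In the pairs of CCDC47 and PSMD8 the D8 library held the lowest antisense value.

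At the other end, the 5 highest median ratios were those of the 3 scaffold pairs, of AOX1 (13.5) and of ZBTB26 (7.68). ZBTB26 encodes a zinc finger protein and was weak, with an FPKM of 1.53, 1.09, 1.28 and 1.38. MSTRG.15972, head to head with it over 253 bases, had 9.81, 9.75, 6.61 and 14.9. The antisense lncRNA exceeded ZBTB26 in every library, by 5.16 times at D4 and 10.8 times at D8.

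In 21 pairs the antisense lncRNA passed the filter and the sense gene did not. The sense genes include some of skeletal muscle and epithelium, which were named after their values were seen. CACNA1S, the calcium channel of skeletal muscle, was at or near 0 (at most 0.0023), and MSTRG.93955, tail to tail with it, had 4.83, 8.36, 4.29 and 3.46 at D0, D2, D4 and D8. TTN, the giant muscle protein titin, was at most 0.0361, beside 1.78, 0.789, 1.40 and 1.60 for MSTRG.134180. SLC5A1, a sodium and glucose cotransporter, had 0.517 to 0.637, and MSTRG.123113 inside it had 16.0, 21.8, 8.87 and 12.4. In FPKM, which is scaled to transcript length, the antisense lncRNA of each pair named here was above its sense gene in every library. Fragment numbers of both strands were not compared. In 417 pairs the sense gene alone passed, and in 242 pairs neither did.

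Among the arrangements, the most abundant antisense lncRNA was MSTRG.157957 in head to head pairs and MSTRG.157960 in tail to tail pairs. Inside a sense gene it was MSTRG.65804, and around a sense gene it was MSTRG.22314. The median over pairs of the highest FPKM of each antisense lncRNA was 0.622 inside sense genes, 0.790 in head to head pairs, 0.762 in tail to tail pairs and 0.805 for those around sense genes, so that the arrangements had similar typical levels.

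Antisense lncRNAs overlapped few of the listed genes of fat cell differentiation, at shares on both sides of that of all genes. A protein_coding row of the tables had an overlapping antisense lncRNA in 801 of 16192 cases (4.95%). Of 62 adipocyte and lipid genes, 1 did, PLIN2, which coats lipid droplets. Of 66 genes of commitment and signalling, 5 did (KLF5, KLF6, SOX4, TGFB1 and HOXC9), of 42 genes of the extracellular matrix 2 (COL15A1 and LUM), of 34 of actin and smooth muscle 4 (MYH10, FLNA, FLNC and LMOD1), and of 27 of the cell cycle 1 (CDKN2B). FLNA, described above, was the only one of these 13 whose antisense lncRNA passed the filter. Of all 801 protein_coding rows with an overlapping antisense lncRNA, 99 had one that passed.

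The antisense partners of the other 12 did not pass the filter, and some rested on few fragments. PLIN2 had an FPKM of 94.9, 115, 113 and 66.7 at D0, D2, D4 and D8, and MSTRG.12192, head to head with it, had 0.0438, 0.360, 0.266 and 0.671 from 1, 6, 6 and 11 fragments. FLNC, the filamin of striated muscle, had 34.5, 6.92, 3.69 and 9.63. MSTRG.148136 inside it had 4, 59, 51 and 0 fragments, that is 0.123, 2.49, 1.59 and 0. FLNC was high at D0, where its antisense lncRNA was near 0, and low at D2 and D4, where the antisense lncRNA was detected. KLF5, a transcription factor of early adipogenesis, was at most 0.196, and MSTRG.99287 around it had 2.53, 0.708, 0.419 and 0.863, highest at D0. KLF6 had 30.6, 6.06, 8.07 and 27.4, and MSTRG.97094 inside it had 0.435, 0.133, 0.515 and 0.270. LUM, the matrix proteoglycan lumican, had 32.6, 128, 186 and 77.0, beside 1, 3, 14 and 1 fragments of MSTRG.54218. LUM and MSTRG.54218 were both highest at D4, and so were COL15A1, a basement membrane collagen, with 19.4, 15.3, 58.8 and 28.4, and MSTRG.14337, head to head with it, with 0.128, 0.262, 1.33 and 0.311. With so few fragments the sizes of these antisense changes are imprecise.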

How the data were processed

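Total RNA of 3 piglets was pooled per stage and sequenced as 1 library for each of D0, D2, D4 and D8. The authors aligned reads with HISAT2 2.0.5 and kept new lncRNAs of at least 200 bases with several exons and without coding potential. The authors deposited FPKM per gene, and the assembler and counter are not given in the sources used here. The 8623 circRNA rows, in another unit, were not used. Library totals were computed from the steps of FPKM of tRNA and miRNA rows: 75387428, 54987801, 74358922 and 54128151 fragments at D0, D2, D4 and D8. Of these short rows, 93.4% to 94.9% came out as whole fragments. For the other rows the smallest length that gives whole fragments in all 4 libraries was taken, so that numbers may be a whole fraction of the true ones and intervals are then too wide. In simulated data for D2 vs D0, 97.1% of 906 rows were recovered exactly and 105 of 105 reliably expressed rows changed 4-fold were called. The simulation held counting error only and no variation between libraries. It therefore checks the computation and says nothing on whether calls between stages would repeat. Ratios are on log2(FPKM + 0.01), a scale that understates changes of low rows. The intervals are exact conditional (Clopper-Pearson) 95% intervals. Antisense and protein_coding rows were paired by at least 1 overlapping base on opposite strands, positions as in the tables (Sscrofa11.1). Mitochondrial biotypes are those of RefSeq. Named were the 10 most abundant members, those 2-fold from D0 at all later stages, pairs with both members past 2-fold, the most abundant pair of each arrangement, the 5 highest and 5 lowest pair ratios, listed sense genes and members named in the study. The members and lists were chosen with earlier results of these data known. Python 3.11.15 with numpy 2.4.6, scipy 1.17.1 and pandas 2.3.3 was used. The values of 1 further gene are not reported here.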

Additional observations from a re-analysis of the deposited data

How the results depend on the processing

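No paired analysis was possible because each stage is 1 pooled library, and no library could be left out, since every comparison needs both. For each setting below, counts of antisense lncRNAs are given as higher and lower, first for the 3 steps between neighbouring stages in their order and then for D4 and D8 against D0, and counts of pairs with both members past the ratio as same and opposite direction in that order. With a pseudocount of 0.1, with the counting interval added to the call at the usual filter, with an overlap of at least 200 bases (706 antisense lncRNAs with a sense gene) and without rows that overlap their own strand, every count and median moved by less than 1.5 times or less than its interval, and the same holds without pairs on unplaced scaffolds or the mitochondrial genome, a setting added after the data were seen, except that 2 instead of 3 pairs moved in the same direction in D4 vs D0, exactly 1.5 times. A pseudocount of 1 gave 8 and 7, 1 and 6, 3 and 11, 9 and 11, and 1 and 14 antisense lncRNAs. It left 0 and 0, 0 and 0, 0 and 0, 2 and 0, and 0 and 0 pairs, and 25 pairs with a steady ratio. With FPKM of at least 1 in all 4 libraries there were 8 and 8, 3 and 8, 4 and 11, 7 and 12, and 1 and 12 antisense lncRNAs, and the pairs in opposite directions numbered 0 in all comparisons. With at least 2 libraries there were 29 and 27, 17 and 21, 19 and 35, 32 and 33, and 15 and 34 antisense lncRNAs, and 4 and 4, 1 and 1, 2 and 2, 7 and 4, and 3 and 0 pairs. Without a filter there were 134 and 128, 138 and 100, 113 and 156, 166 and 154, and 114 and 167 antisense lncRNAs, 43 and 11, 6 and 7, 23 and 8, 49 and 10, and 18 and 7 pairs, 43 pairs with a steady ratio and a median of 0.079 in D4 vs D2. Adding the counting interval to that setting gave 34 and 8, 6 and 4, 20 and 5, 46 and 7, and 17 and 2 pairs. A ratio of at least 1.5 gave 28 and 20, 10 and 21, 17 and 31, 26 and 29, and 11 and 37 antisense lncRNAs, and 6 and 2, 2 and 1, 3 and 4, 7 and 4, and 7 and 0 pairs. Scaling to the median protein_coding ratio gave 3 higher antisense lncRNAs in D4 vs D2 and 11 in D8 vs D4, turned the median of D8 vs D4 to 0.067, and added 1 pair in the same direction in D2 vs D0 and 1 in opposite directions in D8 vs D4. Counting every overlapping partner gave 1, 5 and 1 pairs in the same direction in D2 vs D0, D4 vs D0 and D8 vs D4, and a partner of any biotype gave 2 in D2 vs D0 and 828 antisense lncRNAs with a partner. An FPKM of at least 0.5 raised the share of reliably expressed antisense lncRNAs to 22.3%. Without MSTRG.17987 the share of fragments was 0.351%, 0.332%, 0.304% and 0.287%. For rows below 1 FPKM the number of fragments limits what can be seen, since 3 fragments on 1000 bases correspond to an FPKM of 0.0398 to 0.0554.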

Other observations

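Antisense lncRNAs also have neighbours on their own strand, which were not part of any comparison. Of the 95 reliably expressed ones, 14 overlapped another row on the same strand and 47 had a row upstream of them within 50000 bases, 15 of these within 5000 bases. The following were picked after their values were seen. Upstream of MSTRG.17987, 30089 bases away, MSTRG.18003 is also an antisense lncRNA, with an FPKM of 3.86 (D0), 9.85 (D2), 10.2 (D4) and 5.49 (D8). Farther upstream, 44966 bases from MSTRG.17987, the annotated lncRNA LOC100513133 had 19.6, 57.2, 66.3 and 28.1. All 3 transcripts were highest at D4 and higher at D2 than at D8. On chr11, MSTRG.98456 lies 23802 bases upstream of MSTRG.98462 and was detected mainly at D0, with 2.96 there, 0 at D2 and D4 and 0.0485 at D8. Among the antisense lncRNAs that stayed high after D0, MSTRG.143373 has CRLS1 upstream, the cardiolipin synthase gene, which stayed between 31.2 and 34.1, and MSTRG.144551 has IDH3B, a subunit of mitochondrial isocitrate dehydrogenase, which stayed between 39.1 and 46.9.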
